A study of Mus musculus with 89 samples.

Results

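The genes described here are 9 members of the Nodal and activin pathway, namely the ligand genes Nodal, Inhba and Inhbb, the co-receptor gene Tdgf1, the receptor gene Acvr2b, and the inhibitor genes Lefty1, Lefty2, Fst and Smad7. They were picked as pathway genes by their symbols, with earlier results of these data known, and all 9 were found among the 54146 genes of the expression tables. RNA-seq was available from 20 libraries of mouse embryonic stem cells (ESCs), cultured either in FCS/LIF, which is serum with the self-renewal cytokine LIF, or in 2i/LIF, which is free of serum and holds LIF with inhibitors of MEK (PD0325901) and of GSK3 (CHIR99021). The comparison asks how ESCs respond to loss of the orphan nuclear receptors Esrrb and Nr5a2, singly or together, in each medium. All groups, controls included, derived from EKOiE cells, which carry a knockout of endogenous Esrrb rescued by a transgene that doxycycline (Dox) induces. The control state +E+N was EKOiE kept with Dox at 1 µg/ml, and -E was EKOiE after 2 days without Dox. The -N state was EKOiE NrKO, in which both Nr5a2 alleles are disrupted, kept with Dox, and -E-N was EKOiE NrKO after 2 days without Dox. Each of the 4 states had 2 libraries in FCS/LIF and 3 in 2i/LIF, which gives 8 groups. EKOiE NrKO is a clonal derivative, so loss of Nr5a2 and any other property of that clone cannot be told apart, and medium and culture batch cannot be told apart either.

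Nodal and the activins are TGFβ-family ligands. They bind type II receptors such as Acvr2b together with a type I receptor, which phosphorylates Smad2 and Smad3, and Nodal in addition needs the co-receptor Cripto, the product of Tdgf1. The pathway is held in check by secreted inhibitors, the Lefty proteins for Nodal and follistatin (Fst) for activins, and inside the cell by Smad7. Nodal, the Lefty genes and Smad7 are themselves known transcriptional targets of the pathway, which in ESCs is active through autocrine Nodal and in the embryo patterns the epiblast and induces mesendoderm.

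Libraries held 36514172 to 45443379 estimated counts in FCS/LIF and 26653035 to 32526534 in 2i/LIF. Esrrb transcripts stood at 163 to 249 TPM, a length-corrected share of all transcripts, in +E+N and 38.9 to 40.1 in -E in FCS/LIF. In 2i/LIF they stood at 187 to 273 in +E+N and 113 to 133 in -E, so Esrrb RNA stayed easily detectable after Dox withdrawal. The paper reports that Esrrb binding to DNA was nonetheless lost in this medium after withdrawal. Esrrb TPM does not measure the loss of Esrrb protein, and how much of this RNA came from the disrupted endogenous gene was not tested. Nr5a2 TPM does not check the NrKO label, because the deletions on both alleles lie at 1 exon and the RNA that skips or carries the damaged exon is still counted. It stood at 8.42 in both -N libraries and 12.9 to 13.7 in +E+N in FCS/LIF, and overlapped between -N and +E+N in 2i/LIF. In 2i/LIF, the library numbered 1 had the highest value on the second principal component in every state, and lay farther from number 2 than number 3 did in every state but -E-N, where number 3 was the farther one. Calls of members that change without the libraries numbered 1 are given with and without them. The summed TPM of 8 ESC markers, all detected in every group, ranged from 7886 to 8045 in +E+N and from 4508 to 4919 in -E-N in FCS/LIF, and from 7434 to 7712 and from 2768 to 3768 in 2i/LIF. Dppa5a and Pou5f1 made up most of that sum, with means of 4929 and 1370 TPM in +E+N in 2i/LIF. The summed TPM of 6 trophectoderm markers moved the other way, from 158 to 189 in +E+N to 653 to 995 in -E-N in FCS/LIF, and from 37.4 to 44.2 to 135 to 214 in 2i/LIF. Krt8 alone made up most of the FCS/LIF sum (mean 128 TPM in +E+N and 718 in -E-N). In 2i/LIF most of the rise was Krt8 (5.53 to 86.9) and Cdx2 (0.797 to 27.1). The summed TPM of 6 primitive endoderm markers was 1.53 to 2.67 in +E+N and 5.56 to 7.68 in -E-N in 2i/LIF, and overlapped between these states in FCS/LIF. Most of that rise in 2i/LIF was Foxa2 (mean 0.52 to 4.04 TPM) and Sox17 (0.35 to 1.87), with Pdgfra at 0.227 and 0.533. Gata6 (0.447 to 0.18), Gata4 (0.43 to 0.213) and Sox7 (0.07 to 0.05) were lower on average. The summed TPM of 6 mesoderm markers was 1.98 to 2.78 in +E+N and 5.91 to 7.11 in -E-N in FCS/LIF and overlapped in 2i/LIF. Eomes (mean 0.975 to 2.635 TPM) and T (0.36 to 2.555) made up most of that FCS/LIF rise, while Kdr was lower (0.42 to 0.275). The single losses lay between for the ESC sum, at 6306 to 6460 in -E and 6166 to 7319 in -N in FCS/LIF and at 6238 to 6862 and 5978 to 6666 in 2i/LIF, below every control library. Most of each fall was Dppa5a. Its FCS/LIF mean was 5385 TPM for controls, 4281 after loss of Esrrb alone and 4430 after loss of Nr5a2 alone. The 2i/LIF means were 4929, 4017 and 3996. Mean Pou5f1 was higher than in 2i/LIF controls after loss of Esrrb alone (1437 against 1370). Mean Utf1 was higher after loss of Nr5a2 alone (64.4 against 46.3), and libraries overlapped for both genes. The trophectoderm sum was 236 to 314 in -E and 314 to 444 in -N in FCS/LIF, above every control, and 31.2 to 40.1 and 59.7 to 64.8 in 2i/LIF, where only -N lay above them. That excess in -N was Krt8 (mean 5.53 in +E+N and 30.3 in -N) and Cdx2 (0.797 and 4.54), while Tfap2c was lower (33.8 and 27.4). Gata3, Elf5 and Hand1 stayed at 0.407, 0.247 and 0.0533 TPM in -N. The mesoderm sum was above the controls in both single losses in FCS/LIF (3.81 to 4.28 in -E and 3.23 to 3.25 in -N) and in -E in 2i/LIF (9.0 to 10.68 against 5.80 to 6.51). Eomes and T made up most of each excess. Mean FCS/LIF Eomes TPM was 0.975 for controls, 1.72 after loss of Esrrb alone and 1.605 after loss of Nr5a2 alone. T was 0.36, 1.35 and 0.66 in that order, while Kdr (0.42, 0.165, 0.28) and Mesp1 (0.1, 0.045, 0.065) were lower. Loss of Esrrb alone took 2i/LIF Eomes from 3.64 to 5.10, T from 1.42 to 3.67 and Kdr from 0.407 to 0.15. The part of these marker changes in the results was not tested, and in such bulk samples fewer cells of a type and less RNA per cell cannot be told apart.

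The sequences just upstream of 3 genes that lost the most RNA in -E-N in 2i/LIF are shown so that each response can be set beside its promoter. They are the 250 bases before the annotated RefSeq start on GRCm38.p6, 5′ to 3′ on the strand of the gene, at chr10:61417722-61417971 on the plus strand for Nodal, chr1:119422249-119422498 on the minus strand for Inhbb, and chr9:110946159-110946408 on the minus strand for Tdgf1. Capitals mark the letters AGGTCA or AGGCCA, read on either strand. These hexamers are only the end of the longer sequence that Esrrb and Nr5a2 type receptors recognise.
Nodal: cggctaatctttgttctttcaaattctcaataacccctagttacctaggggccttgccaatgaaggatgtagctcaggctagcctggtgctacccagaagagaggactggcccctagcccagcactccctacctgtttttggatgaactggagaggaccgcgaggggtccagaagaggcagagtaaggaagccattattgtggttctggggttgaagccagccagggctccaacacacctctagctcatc
Inhbb: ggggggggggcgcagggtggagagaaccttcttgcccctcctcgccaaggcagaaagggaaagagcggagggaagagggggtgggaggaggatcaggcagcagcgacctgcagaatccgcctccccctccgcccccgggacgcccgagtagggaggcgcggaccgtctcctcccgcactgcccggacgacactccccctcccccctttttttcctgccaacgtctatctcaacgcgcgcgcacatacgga
Tdgf1: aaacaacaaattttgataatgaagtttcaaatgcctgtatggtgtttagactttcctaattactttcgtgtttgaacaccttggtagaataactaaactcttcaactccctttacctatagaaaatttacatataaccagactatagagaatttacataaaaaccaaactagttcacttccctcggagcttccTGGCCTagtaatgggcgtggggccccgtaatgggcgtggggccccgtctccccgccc
The Tdgf1 window held AGGCCA on the opposite strand, read as TGGCCT, from 57 to 52 bases before the start, and the Nodal and Inhbb windows held neither hexamer. In the paper, the consensus of both receptors has further bases before this hexamer. The bases beside the Tdgf1 match differed from that consensus at more positions than the paper's search for exact or near-exact matches allowed. The paper also scanned for motifs with more permissive settings, and those scans were not run here. Binding of either receptor at this match was not tested here, and the paper's ChIP-seq maps of both receptors were not examined at it. Among 32851 promoter windows of the same length, 14.02% held AGGTCA, 18.8% held AGGCCA and 30.1% held either. The Inhbb window was the richest of these 3 in G and C, at 68.0% with 21 CG dinucleotides, against 53.2% with 3 in Nodal and 42.0% with 7 in Tdgf1. Promoters of 5 of the 9 genes were at hand, and those of Inhba and Acvr2b also held neither hexamer. Lefty1, Lefty2, Fst and Smad7 had no entry in the promoter set.

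In control cells the pathway genes differed widely in level, and 4 of the 8 that could be tested differed between media. On the TPM scale, which corrects for transcript length, Tdgf1 was the most abundant in both media (275 ± 18.0 TPM, SD, n = 2, in FCS/LIF and 334 ± 94.6, n = 3, in 2i/LIF). Nodal was close in both media, at 40.6 ± 3.25 in FCS/LIF and 38.6 ± 2.09 in 2i/LIF, and so was Smad7, at 18.8 ± 0.62 and 19.5 ± 3.03. The Lefty genes, by contrast, were far higher in FCS/LIF, where Lefty1 stood at 87.4 and 95.9 TPM against 6.21, 6.07 and 4.71 in 2i/LIF. Lefty2 stood at 29.1 and 32.5 TPM in FCS/LIF against 5.59, 6.12 and 4.29 in 2i/LIF. The libraries of the 2 media did not overlap for either gene. Acvr2b was lower in 2i/LIF too, at 4.10, 5.82 and 5.01 TPM against 11.6 and 11.5. Inhbb went the other way, at 6.02, 15.5 and 14.8 TPM in 2i/LIF against 3.25 and 2.64 in FCS/LIF. In the edgeR fit, the log2 difference of 2i/LIF from FCS/LIF was -4.16 ± 0.24 (SE) for Lefty1 (adjusted p = 4.5e-10), -2.28 ± 0.19 for Lefty2 (adjusted p = 3.3e-08) and -1.20 ± 0.11 for Acvr2b (adjusted p = 5.3e-08), and Inhbb was higher by 2.04 ± 0.51 (adjusted p = 0.0023). A gene was called at a Benjamini-Hochberg adjusted p under 0.01 from edgeR's quasi-likelihood test together with a fold change over 1.5, and 34.7% of all tested genes were called between media. The Inhbb call was lost without either FCS/LIF control library, with an adjusted p of 0.015 and 0.035. Inhba had 1 and 3 counts in the FCS/LIF controls and none in 2i/LIF.

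In each medium, the states that had lost a factor were compared with +E+N. In FCS/LIF, the -E state called 2 of the 8 tested members, Inhbb down and Fst up, against 5.76% of all genes. The -N state called Inhbb alone, down, against 0.173% of all genes. The -E-N state called 3, Inhbb down and Fst and Lefty1 up, against 18.8% of all genes. In 2i/LIF, -E and -N each called 2 members, Lefty1 and Lefty2, both up, against 1.55% and 3.65% of all genes. With the replicate number as a block, which pairs these libraries, each called 3, adding Smad7 down in -E and Inhbb down in -N. The -E-N state in 2i/LIF called 7 of 8, with Nodal, Inhbb, Tdgf1 and Smad7 down and Lefty1, Lefty2 and Fst up, against 18.6% of all genes. The median log2 fold change of the 8 members in that comparison was -0.48, against 0.01 over all genes, and in FCS/LIF it was 0.20 against 0.00. Set against the single losses, -E-N in FCS/LIF differed from -N in 4 members (10.1% of all genes called) and from -E in 2 (5.05%), and in 2i/LIF from -N in 6 (6.76%) and from -E in 6 (13.1%). These comparisons share libraries, so their counts are not independent of each other.

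**Figure D1:**
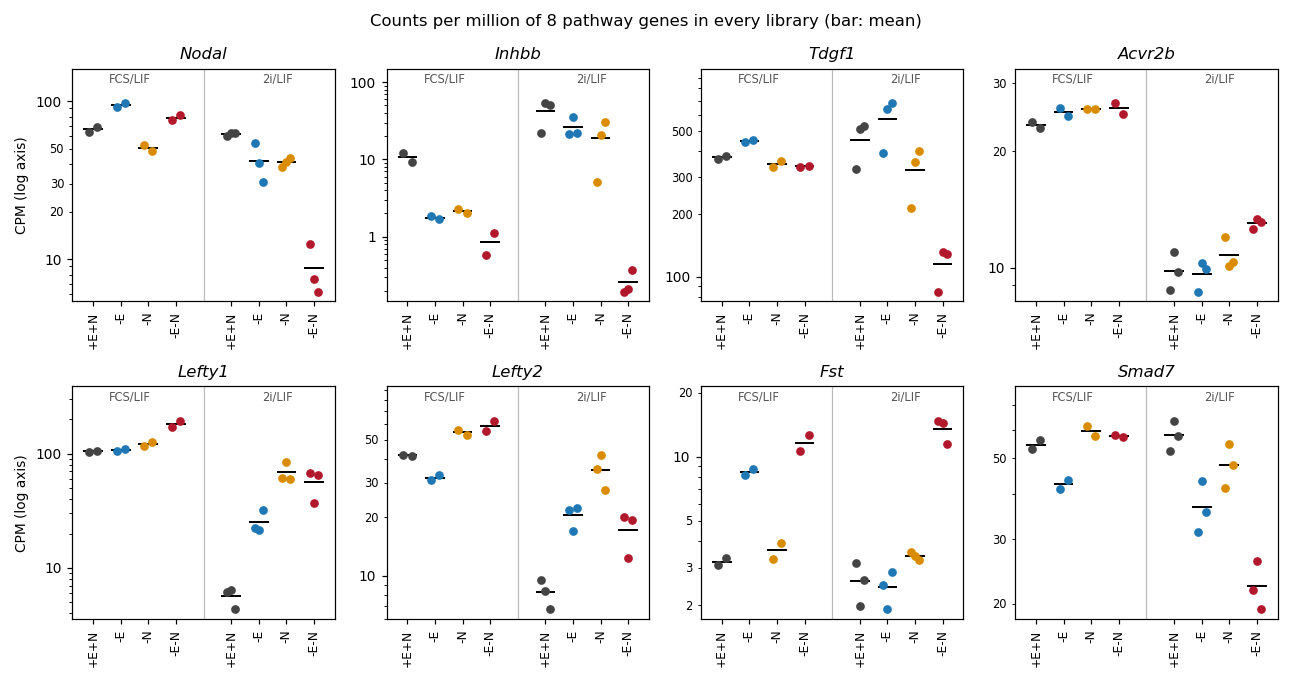
Library-scaled counts (CPM, log axis, normalised within each medium) of 8 members in each library, by state and medium; points are libraries and bars are group means. Nodal, Inhbb, Tdgf1 and Smad7 sit lowest in the 3 -E-N libraries in 2i/LIF, while Lefty1 and Lefty2 sit lowest in the 3 +E+N libraries in 2i/LIF.

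**Figure D2:**
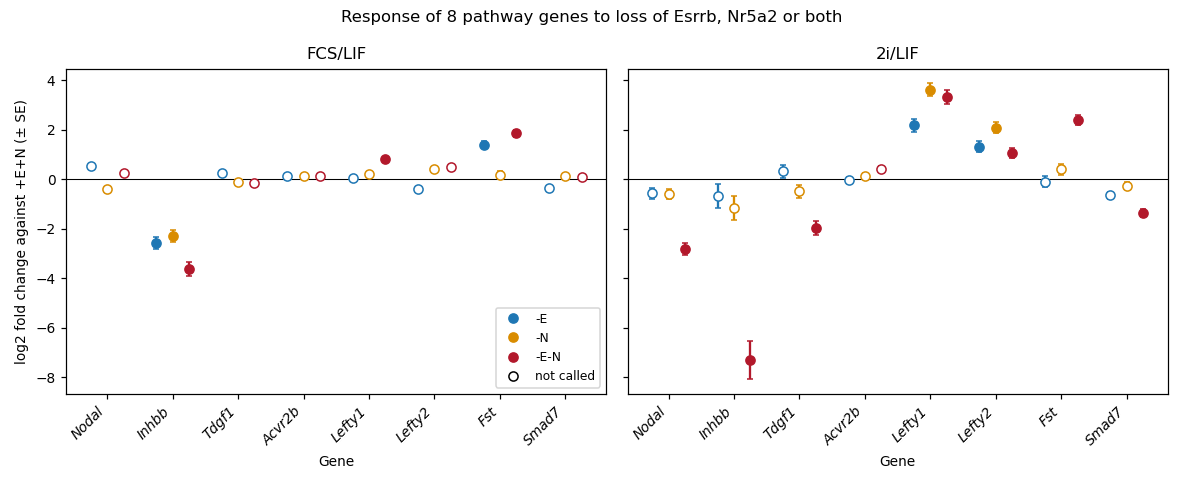
Log2 fold change of 8 members against +E+N in FCS/LIF (left) and 2i/LIF (right); points are edgeR estimates, bars are ± SE, filled points were called and open points were not. In 2i/LIF, 7 of the 8 members were called in -E-N, from -7.31 for Inhbb to 3.32 for Lefty1.

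Among the ligands, Nodal (ENSMUSG00000037171, chromosome 10, 61417972 to 61425338, plus strand, GRCm38) lost most of its RNA in one group only, -E-N in 2i/LIF. There it stood at 12.5, 7.54 and 6.24 CPM, where CPM are counts per 1e+06 after normalisation within a medium, against 59.9, 63.2 and 62.8 in +E+N. The single losses lay between, at 54.1, 40.4 and 30.8 CPM in -E and 38.2, 41.1 and 43.7 in -N. No library of any of these 3 states reached the controls. Nodal fell by 2.82 ± 0.23 (SE) on the log2 scale in -E-N against +E+N (edgeR adjusted p = 2.2e-06), by 2.22 ± 0.23 against -N (adjusted p = 6.7e-05) and by 2.25 ± 0.23 against -E (adjusted p = 2.1e-05). The differences of -0.57 in -E (adjusted p = 0.15) and -0.60 in -N (adjusted p = 0.098) were not called, although -E was called without the libraries numbered 1 (-0.83, adjusted p = 0.0092). In FCS/LIF, the Nodal values without Esrrb lay above those with it, at 92.6 and 97.6 CPM in -E and 76.2 and 81.5 in -E-N against 64.3 and 68.4 in +E+N and 52.9 and 48.5 in -N. The 4 states did not overlap. The difference of 0.52 ± 0.07 in -E passed the adjusted p (0.0013) but not the fold limit in edgeR, and passed both in limma on log2(TPM + 1), at 0.63. From -N to -E-N Nodal rose by 0.64 ± 0.07 (adjusted p = 3.1e-04), a call that was lost without -N replicate 2 (0.58) or -E-N replicate 2 (0.56), or with all 20 libraries in one fit (adjusted p = 0.048). By TPM, Nodal was highest in -E in FCS/LIF (63.2 ± 2.49) and lowest in -E-N in 2i/LIF (5.45 ± 1.98). The FCS/LIF and 2i/LIF controls, and -N and -E in 2i/LIF, were neighbours in that order whose libraries overlapped.

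Inhbb (ENSMUSG00000037035, chromosome 1, 119415465 to 119422248, minus strand), which encodes the βB subunit of activin B, was the member that fell furthest. In FCS/LIF it stood at 12.03 and 9.24 CPM for +E+N, 1.83 and 1.69 for -E, 2.31 and 2.02 for -N and 0.586 and 1.11 for -E-N. The states did not overlap, and each loss left every library below the controls. Relative to +E+N it fell by 2.59 ± 0.25 in -E (edgeR adjusted p = 2.1e-04), by 2.29 ± 0.24 in -N (adjusted p = 0.0062) and by 3.64 ± 0.27 in -E-N (adjusted p = 1.9e-05). The -N call was lost without any one of the +E+N, -E or -N libraries (adjusted p of 0.012 to 0.031), in limma (0.028 on log2(TPM + 1)) and with all 20 libraries in one fit (0.11), while its fold change stayed between -2.47 and -2.09 in the fits without 1 library. The -E call was lost with all 20 libraries in one fit (adjusted p = 0.014). From -N to -E-N it fell by 1.35 ± 0.29 (adjusted p = 0.0081), a call lost without either -E or either -N library or -E-N replicate 1 (adjusted p of 0.015 to 0.039). In 2i/LIF, Inhbb stood at 21.7, 53.8 and 50.6 CPM for +E+N, 21.1, 35.8 and 21.8 for -E, 5.08, 20.5 and 30.4 for -N and 0.195, 0.211 and 0.373 for -E-N. The last group came to 6, 6 and 11 counts, against 688, 1466 and 1464 in +E+N, and lay far below every other 2i/LIF library, whereas both single losses overlapped the controls. Inhbb fell by 7.31 ± 0.77 in -E-N against +E+N (edgeR adjusted p = 1.4e-05), by 6.14 ± 0.78 against -N (adjusted p = 2.7e-04) and by 6.64 ± 0.78 against -E (adjusted p = 5.9e-05). It was not called in -E (-0.68 ± 0.47, adjusted p = 0.47) or -N (-1.17 ± 0.48, adjusted p = 0.15). With the replicate number as a block, which pairs these libraries, -N was called (-1.26, adjusted p = 0.006). The libraries numbered 1 were the lowest of their state in +E+N, -E and -N.

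Inhba (ENSMUSG00000041324, chromosome 13, 16011851 to 16031621, plus strand), which encodes the βA subunit of activin A, had counts in FCS/LIF alone and did not pass the filter on low counts. It had 1 and 3 counts for +E+N, 17 and 15 for -E, 2 and 5 for -N and 16 and 22 for -E-N. The libraries without Esrrb were thus the higher ones. On summed counts, scaled by library totals, the ratio to +E+N was 7.94 in -E (exact 95% interval 2.82 to 30.9), 1.64 in -N (0.416 to 7.63) and 10.3 in -E-N (3.71 to 39.8), where the intervals cover counting error only. In 2i/LIF all 12 libraries had 0 counts, which allows up to 3 counts, or 0.0922 to 0.113 CPM, per library.

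The co-receptor gene Tdgf1 (ENSMUSG00000032494, chromosome 9, 110939603 to 110946158, minus strand) was called lower in 1 group, -E-N in 2i/LIF. There it stood at 327, 509 and 529 CPM for +E+N, 394, 636 and 682 for -E, 214, 354 and 403 for -N and 85.1, 132 and 129 for -E-N. The -E-N libraries lay below all others, and the single losses overlapped the controls. In every state the library numbered 1 was the lowest. Paired by number, -E was higher than +E+N in 3 of 3 pairs and -N lower in 3 of 3, and in the blocked fit these differences passed the adjusted p but not the fold limit (0.32, adjusted p = 0.0022, and -0.51, adjusted p = 4.1e-05). Tdgf1 fell by 1.98 ± 0.28 in -E-N against +E+N (edgeR adjusted p = 1.3e-04), by 2.31 ± 0.28 against -E (adjusted p = 8.4e-05) and by 1.49 ± 0.28 against -N (adjusted p = 0.0029). The last call was lost without -E-N replicate 1, -N replicate 2 or -N replicate 3 (adjusted p of 0.012 to 0.013) and in limma (0.014). In FCS/LIF the range was narrow, with 368 and 382 CPM for +E+N, 445 and 453 for -E, 335 and 358 for -N and 338 and 341 for -E-N. The difference of 0.26 ± 0.05 in -E had an adjusted p of 0.0095 but lay under the fold limit, and no FCS/LIF comparison called the gene. Tdgf1 shares 86 windows of 100 bases, taken at every base position and so overlapping, with the pseudogene Tdgf1-ps1. These were 3.17% of the windows in Tdgf1 and 20.8% of those in the pseudogene, so reads there could be assigned to either. The pseudogene held 4.35% to 6.99% of their summed counts in every library.

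The type II receptor gene Acvr2b (ENSMUSG00000061393, chromosome 9, 119402118 to 119434995, plus strand) differed between media and was called in no loss. It stood at 23.8 and 23.0 CPM in +E+N in FCS/LIF and between 24.7 and 26.7 in the other FCS/LIF libraries. In 2i/LIF it stood at 8.73, 10.9 and 9.74 CPM for +E+N, 8.66, 10.3 and 9.93 for -E, 11.98, 10.1 and 10.3 for -N and 12.6, 13.4 and 13.1 for -E-N. The -E-N libraries were the highest of that medium, but the difference of 0.41 ± 0.12 from +E+N was not called (edgeR adjusted p = 0.015).

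The inhibitor genes Lefty1 (ENSMUSG00000038793, 180935022 to 180938400) and Lefty2 (ENSMUSG00000066652, 180893108 to 180899103) lie 35918 bases apart on the plus strand of chromosome 1, and rose in 2i/LIF with each loss. Lefty1 stood at 6.11, 6.46 and 4.32 CPM for +E+N, 22.4, 21.6 and 32.3 for -E, 61.7, 84.3 and 60.5 for -N and 67.4, 36.9 and 64.8 for -E-N. The controls and -E did not overlap with any other state, while -N and -E-N overlapped. Lefty1 rose by 2.18 ± 0.26 in -E (edgeR adjusted p = 5.8e-04), by 3.61 ± 0.27 in -N (adjusted p = 8.8e-06) and by 3.32 ± 0.26 in -E-N (adjusted p = 1.6e-06). From -E to -E-N it rose by 1.15 ± 0.23 (adjusted p = 0.0026), a call that was lost without -E replicate 1 or 2 or -E-N replicate 1 or 3 (adjusted p of 0.011 to 0.015) and without all libraries numbered 1 (0.041). From -N to -E-N the difference was -0.29 ± 0.23 (adjusted p = 0.42).

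Lefty2 in 2i/LIF stood at 9.55, 8.33 and 6.70 CPM for +E+N, 21.9, 17.0 and 22.4 for -E, 35.3, 41.7 and 27.5 for -N and 20.0, 12.4 and 19.3 for -E-N. Every loss lay above the controls, and -N lay above the other 3 states. It rose by 1.32 ± 0.21 in -E (edgeR adjusted p = 0.0033), by 2.09 ± 0.21 in -N (adjusted p = 7.6e-05) and by 1.07 ± 0.21 in -E-N (adjusted p = 0.0014), and it fell by 1.01 ± 0.20 from -N to -E-N (adjusted p = 0.0042). Without the libraries numbered 1 the rise in -E (1.39, adjusted p = 0.022), the rise in -E-N (1.08, adjusted p = 0.012) and the fall from -N (-1.13, adjusted p = 0.014) were no longer called. The -E call was also lost without -E replicate 1 or 3 or +E+N replicate 2 or 3 (adjusted p of 0.013 to 0.019), and the fall from -N without -N replicate 1 or 2 or -E-N replicate 2 (0.012 to 0.023). From -E to -E-N the difference was -0.24 ± 0.20 (adjusted p = 0.39).

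Windows of 100 bases were taken at every base position of the transcripts, so that neighbouring windows overlap. The Lefty genes share 97 such windows, 5.85% of those in Lefty1 and 3.86% of those in Lefty2, and their counts were therefore also summed. The sum rose in 2i/LIF by 1.73 ± 0.23 in -E (edgeR adjusted p = 0.0011), 2.91 ± 0.23 in -N (adjusted p = 1.5e-05) and 2.41 ± 0.23 in -E-N (adjusted p = 6.6e-06). For the sum, -E-N differed neither from -N (-0.49, adjusted p = 0.13) nor from -E (0.68, adjusted p = 0.028) past the threshold. The share of Lefty1 in the summed TPM was 51.6% ± 1.56 (SD, n = 3) for +E+N, 61.2% ± 5.96 for -E, 74.4% ± 2.51 for -N and 83.3% ± 0.88 for -E-N, and these 4 ranges did not overlap. In FCS/LIF the group means of that share lay between 74.0% and 80.5%.

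In FCS/LIF, where the Lefty genes were already abundant, Lefty1 was called in -E-N and in neither single loss. It stood at 104 and 106 CPM for +E+N, 106 and 111 for -E, 116 and 127 for -N and 171 and 195 for -E-N. The -E-N libraries were the highest, and the controls and -E overlapped. Lefty1 rose by 0.80 ± 0.07 in -E-N against +E+N (edgeR adjusted p = 5.7e-05), by 0.75 ± 0.07 against -E (adjusted p = 5.7e-04) and by 0.59 ± 0.07 against -N (adjusted p = 6.2e-04). The rise against -N sat at the fold limit, and fell to between 0.47 and 0.56 and under that limit without either -E library, -N replicate 1 or -E-N replicate 2. The rise against -E was lost without -E replicate 1 (0.70, adjusted p = 0.013). With all 20 libraries in one fit the adjusted p was 0.012 against +E+N, 0.05 against -E and 0.087 against -N. Lefty2 stood at 41.8 and 41.4 CPM for +E+N, 31.0 and 33.0 for -E, 56.2 and 53.1 for -N and 55.8 and 62.7 for -E-N. It was thus lowest in -E, and highest in the libraries without Nr5a2. It rose by 0.89 ± 0.07 from -E to -E-N (adjusted p = 3.4e-04). Against +E+N, the differences of -0.38 in -E and 0.51 in -E-N passed the adjusted p (0.0085 and 6e-04) but not the fold limit.

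The balance of the Lefty inhibitors to their ligand spanned a wide range in 2i/LIF. The summed Lefty TPM was 0.286 ± 0.054 (SD, n = 3) times the Nodal TPM for +E+N, 1.51 ± 0.637 for -E, 3.20 ± 0.627 for -N and 11.6 ± 4.94 for -E-N. In FCS/LIF the same ratio was 3.02 ± 0.034 (n = 2) for +E+N, 2.01 ± 0.019 for -E, 4.56 ± 0.336 for -N and 4.09 ± 0.155 for -E-N. Only the 2i/LIF controls held less Lefty than Nodal RNA in every library. The lowest of the -E libraries stood at 1.07, and the highest of the -E-N libraries at 17.3.

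**Figure D3:**
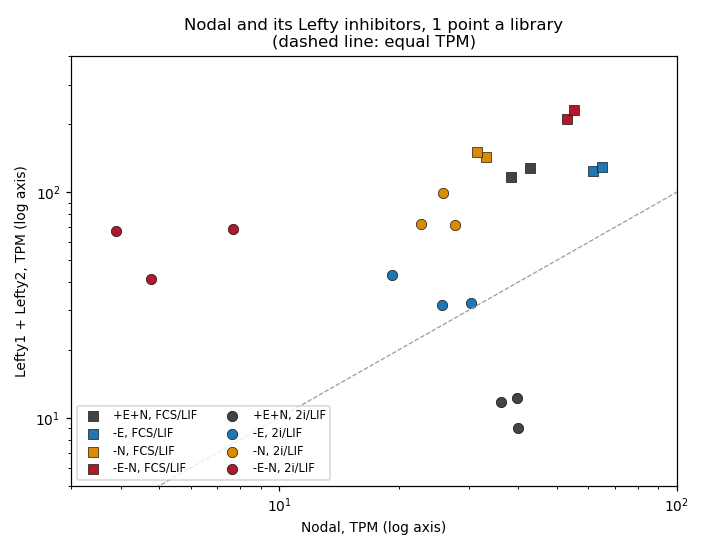
Summed TPM of Lefty1 and Lefty2 against the TPM of Nodal, both on log axes, 1 point a library; squares are FCS/LIF, circles are 2i/LIF, colours are states and the dashed line marks equal TPM. The 3 +E+N libraries in 2i/LIF lie below the line, and the 3 -E-N libraries in 2i/LIF lie at the far left, at a Nodal TPM of 3.90 to 7.68.

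Fst (ENSMUSG00000021765, chromosome 13, 114452290 to 114458951, minus strand), which encodes the activin-binding inhibitor follistatin, rose in FCS/LIF in both states without Esrrb and in 2i/LIF in -E-N. In FCS/LIF it stood at 3.09 and 3.32 CPM for +E+N, 8.22 and 8.71 for -E, 3.31 and 3.94 for -N and 10.6 and 12.6 for -E-N. The libraries without Esrrb lay above all libraries with it. Fst rose by 1.40 ± 0.15 in -E (edgeR adjusted p = 4.5e-04), by 1.85 ± 0.15 in -E-N (adjusted p = 3e-05) and by 1.68 ± 0.15 from -N to -E-N (adjusted p = 1.0e-04). In 2i/LIF it stood at 3.15, 1.98 and 2.62 CPM for +E+N, 2.50, 1.91 and 2.87 for -E, 3.56, 3.41 and 3.25 for -N and 14.7, 14.4 and 11.4 for -E-N. The -E-N libraries stood far above the others, and -E overlapped the controls. Fst rose by 2.38 ± 0.20 in -E-N against +E+N (adjusted p = 2.8e-06), by 2.48 ± 0.20 against -E (adjusted p = 4e-06) and by 1.99 ± 0.20 against -N (adjusted p = 5.5e-05). It was not called in -E (-0.10 ± 0.21, adjusted p = 0.84) or in -N (0.39 ± 0.20, adjusted p = 0.26). By TPM the 2 -E-N groups headed the order and overlapped each other, at 9.86 ± 1.69 in 2i/LIF and 9.60 ± 0.54 in FCS/LIF.

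Smad7 (ENSMUSG00000025880), which encodes the inhibitory Smad that acts on the receptors, fell in 2i/LIF and moved little in FCS/LIF. In 2i/LIF it stood at 52.3, 63.4 and 57.8 CPM for +E+N, 31.3, 43.3 and 35.7 for -E, 41.5, 54.6 and 48.0 for -N and 21.8, 26.1 and 19.3 for -E-N. The -E-N libraries were the lowest and the -E libraries also lay below the controls, while -N overlapped them. Smad7 fell by 1.37 ± 0.14 in -E-N against +E+N (edgeR adjusted p = 1.4e-05), by 1.10 ± 0.14 against -N (adjusted p = 3.3e-04) and by 0.72 ± 0.14 against -E (adjusted p = 0.0025). The last call was lost without -E replicate 2 or -E-N replicate 3 (adjusted p of 0.012 to 0.013) and in limma (0.038 on log2(TPM + 1)). The difference of -0.65 ± 0.14 in -E missed the threshold (adjusted p = 0.018), but was called with the paired replicate number as a block (-0.66, adjusted p = 8.6e-05) and in DESeq2 (-0.65, adjusted p = 5.9e-04). In FCS/LIF it stood at 53.0 and 56.1 CPM for +E+N, 41.3 and 43.6 for -E, 61.3 and 57.7 for -N and 58.1 and 57.3 for -E-N. The -E libraries were the lowest, at a difference of -0.36 ± 0.06 that passed the adjusted p (0.0050) but not the fold limit.

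Whether the joint loss differed from the sum of the single losses was tested as an interaction on the log2 scale, with a call at an adjusted p under 0.01. In 2i/LIF 3 of 8 members were called, against 0.307% of all genes. Fst had an interaction of 2.08 ± 0.29 (edgeR adjusted p = 0.0061), so that it rose by more than the single changes add up to. Lefty1 (-2.46 ± 0.35, adjusted p = 0.0065) and Lefty2 (-2.33 ± 0.29, adjusted p = 0.0039) rose by less, and their sum gave -2.22 ± 0.31 (adjusted p = 0.0064). These calls were close to the threshold. Of the 12 fits without 1 library, Lefty1 lost its call in 9 (adjusted p of 0.011 to 0.023; kept without -N replicate 1 and -E-N replicates 1 and 2), Fst in 8 (0.012 to 0.023; kept without +E+N replicate 2, -N replicate 1 and -E and -E-N replicates 3) and Lefty2 in 4 (0.01 to 0.016; lost without -E replicate 1, +E+N replicate 2 or 3, or -N replicate 2). Without all libraries numbered 1 the 3 calls were lost, at -2.84 for Lefty1 (adjusted p = 0.023), -2.53 for Lefty2 (0.017) and 1.90 for Fst (0.037), and limma on log2(TPM + 1) gave an adjusted p of 0.020 for Lefty1 and 0.028 for Fst. Nodal (-1.65 ± 0.31, adjusted p = 0.024), Tdgf1 (-1.81 ± 0.38, adjusted p = 0.039) and Inhbb (-5.46 ± 0.96, adjusted p = 0.019) fell short. These 3 were called in DESeq2, with all 20 libraries in one fit, and in the fit blocked by number (adjusted p of 0.0022, 1.5e-07 and 4.2e-04), and the 3 alternatives each called 6 members. They were also called without the libraries numbered 1 (0.0047, 3.5e-04 and 0.0024). In FCS/LIF no member was called by edgeR, against 0.032% of all genes. There 5 of 8 members had an unadjusted p under 0.05, against 8.85% of all genes, and DESeq2 called 1, Lefty1 (0.52, adjusted p = 0.0066).

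The difference between the media was tested directly, as the response in FCS/LIF minus that in 2i/LIF. For -E, 3 of 8 members differed, against 1.06% of all genes. The response of Fst was higher in FCS/LIF by 1.52 ± 0.28 (edgeR adjusted p = 0.0061), and those of Lefty1 and Lefty2 were lower, by -2.11 ± 0.33 (adjusted p = 0.0019) and -1.67 ± 0.27 (adjusted p = 0.0027). The Lefty1 call was lost without FCS/LIF +E+N replicate 1 or either FCS/LIF -E library (adjusted p of 0.011 to 0.018), and that of Lefty2 without any one of the FCS/LIF +E+N and -E libraries (0.011 to 0.020). Of 20 fits without 1 library, Fst lost its call in 10, namely without any FCS/LIF library other than -N and, in 2i/LIF, without +E+N replicate 1 or 3, -E replicate 2 or -E-N replicate 2 (adjusted p of 0.01 to 0.044), and it was lost without all 2i/LIF libraries numbered 1 (1.37, adjusted p = 0.020). The response of Nodal differed by 1.11 ± 0.28 (adjusted p = 0.036) and was not called, but it was called in DESeq2, in the blocked fit and without the filter on low counts (adjusted p of 0.0068, 0.0045 and 3.8e-12), without 2i/LIF -E or -E-N replicate 1 (0.0071 each) and without all 2i/LIF libraries numbered 1 (1.37, adjusted p = 3.4e-04). For -N, Lefty1 (-3.39 ± 0.33, adjusted p = 2.5e-05) and Lefty2 (-1.68 ± 0.27, adjusted p = 0.0026) differed, 2 of 8 against 0.743% of all genes, and the Lefty2 call was lost without any one of the FCS/LIF +E+N and -N libraries (0.013 to 0.022). For -E-N, 4 of 8 differed, against 13.2% of all genes. The response was higher in FCS/LIF for Nodal by 3.10 ± 0.29 (adjusted p = 2e-06), for Tdgf1 by 1.87 ± 0.37 (adjusted p = 0.0014) and for Smad7 by 1.48 ± 0.19 (adjusted p = 4.6e-05), and lower for Lefty1 by -2.49 ± 0.33 (adjusted p = 4.6e-05). All 4 were called in every fit without 1 library. Inhbb differed by 3.71 ± 1.08 (adjusted p = 0.019), which was called in DESeq2 (adjusted p = 4.1e-04) and without the 2i/LIF libraries numbered 1 (adjusted p = 4.5e-04).

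Around these members, a list of 41 other pathway genes was read in the same fits. In FCS/LIF 35 of them were tested, and -E-N called 10, with 8 up and 2 down, against 18.8% of all genes, at a median log2 fold change of 0.35 against 0.00 over all genes. Where counts averaged 100 or more, the largest rises were those of Tgfbr3, which encodes the co-receptor betaglycan (1.94 ± 0.29, edgeR adjusted p = 7.6e-04), Fstl3, a relative of follistatin (1.70 ± 0.31, adjusted p = 0.0020), and Furin, which encodes a proprotein convertase that matures Nodal (1.38 ± 0.16, adjusted p = 2.0e-04). The 2 genes that fell were Pcsk6, which encodes the proprotein convertase Pace4, which also matures Nodal (-1.46 ± 0.13, adjusted p = 4e-05), and Tgif1, a Smad co-repressor gene (-0.66 ± 0.07, adjusted p = 9.4e-05). In -E, 2 were called, against 5.76% of all genes, Pcsk6 (-1.70) down and Skil (0.63), a Smad co-repressor gene, up. In -N none was called by edgeR, where 7 had an unadjusted p under 0.05, against 16.3% of all genes, and DESeq2 called 2. From -E to -E-N, 3 were called, against 5.05% of all genes, all up, namely Furin (1.18), Smad3 (0.73) and Tgfb2 (1.43). From -N to -E-N 5 were called, against 10.1% of all genes, the same 3 genes with T (2.13) up, at 0.71 for Furin, 0.66 for Smad3 and 1.67 for Tgfb2, and Pcsk6 (-1.51) down.

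In 2i/LIF 32 genes of the list were tested, and -E-N called 11, with 4 up and 7 down, against 18.6% of all genes, at a median of 0.01 against 0.01 over all genes. The count was 6 without -E-N replicate 1 and 7 without +E+N replicate 1 or 2. Fold changes for this comparison are given only for genes whose counts averaged 100 or more. Among those that fell were the mesendoderm transcription factor genes Gsc (-2.79 ± 0.17, edgeR adjusted p = 2.5e-07) and Eomes (-1.94 ± 0.31, adjusted p = 3.3e-04), and Pcsk6 (-2.04 ± 0.11, adjusted p = 9.8e-08). Among those that rose were T, the mesoderm factor Brachyury (2.44 ± 0.53, adjusted p = 0.0028), Skil (0.72 ± 0.18, adjusted p = 0.0072) and the type I receptor gene Acvr1b (0.70 ± 0.17, adjusted p = 0.0047). T and Eomes also belong to the mesoderm markers above. Foxa2, a target gene of the list and a primitive endoderm marker above, stood at 0.52 ± 0.19 TPM (SD, n = 3) for +E+N and 4.04 ± 0.86 for -E-N. Gsc stood at 10.1 ± 1.38 TPM (SD, n = 3) for +E+N, 3.71 ± 0.071 for -E, 5.26 ± 0.55 for -N and 1.45 ± 0.18 for -E-N. Pcsk6 stood at 20.6 ± 3.39, 11.05 ± 1.50, 14.8 ± 1.67 and 5.23 ± 0.72 TPM in the same order. In -E, Gsc (-1.40) and Pcsk6 (-0.85) were called, against 1.55% of all genes, and in -N, against 3.65%, Gsc (-0.93) and Tgfbr2 (-1.09), a TGFβ receptor gene. With the paired replicate number as a block 4 were called in -E and 4 in -N, and without the libraries numbered 1 edgeR called 0 in -N, where 16 of 33 had an unadjusted p under 0.05, against 25.2% of all genes. In -N 0 were also called without -N replicate 1 or 2 or +E+N replicate 2, and 1 without +E+N replicate 1. From -N to -E-N, Foxa2 (2.13), Gsc (-1.85), Pcsk6 (-1.57) and Pmepa1 (-1.14), a Smad-binding inhibitor gene, were called, against 6.76% of all genes, and 7 genes were called from -E to -E-N, 3 up and 4 down, against 13.1%. Between media, 13 of 36 tested genes differed in control cells, with 9 higher in 2i/LIF and 4 lower, close to the 34.7% of all genes. The -E-N response differed between media in 8 of 36, against 13.2% of all genes, and those to -E and -N in none by edgeR, where 7 and 10 had an unadjusted p under 0.05, against 17.6% and 15.3% of all genes, and DESeq2 called 2 and 3. No gene of the list had an interaction in either medium by edgeR, where 9 in FCS/LIF and 13 in 2i/LIF had an unadjusted p under 0.05, against 8.85% and 13.7% of all genes, and DESeq2 called 0 and 3.

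**Figure D4:**
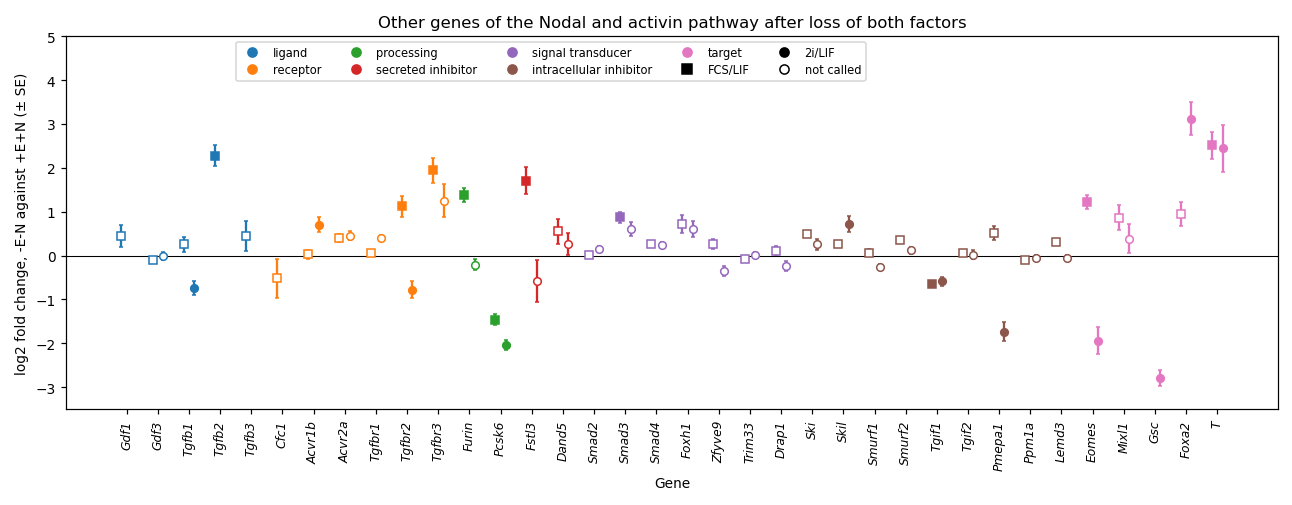
Log2 fold change in -E-N against +E+N of the other pathway genes that passed the filter, ordered and coloured by role; squares are FCS/LIF, circles are 2i/LIF, bars are ± SE, filled points were called and open points were not. Of the filled points, 8 lie above and 2 below 0 in FCS/LIF, and 4 above and 7 below in 2i/LIF.

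To see which genes ran in parallel with the members, log2 CPM were correlated over the 20 libraries after each medium was centred on its own mean, among 10760 genes. These libraries share states and replicate numbers, so the values only describe likeness. Nodal was most like Tmc7 (Pearson's r = 0.93), Hes1 (0.93), a Notch-pathway repressor gene, and Cth (0.92). Inhbb was most like Ooep (0.97), Arih2 (0.95) and Aes (0.95), and Tdgf1 like its pseudogene Tdgf1-ps1 (0.99), Pacsin1 (0.96) and Susd1 (0.96). Reads in the sequence that Tdgf1 and Tdgf1-ps1 share could be assigned to either, and their part in that value was not tested. Lefty1 and Lefty2 were each among the 3 closest genes of the other (0.86), beside Clstn3 (0.86) for Lefty1 and Dusp11 (0.87) and Rbm41 (0.73) for Lefty2. Fst was most like Arap2 (0.96), Gprc5c (0.95) and Oat (0.95), Smad7 like Sipa1l2 (0.96), Gramd1a (0.94) and Adprh (0.94), and Acvr2b like Lmf1 (0.94), Usp6nl (0.91) and Chd3 (0.88).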

How the data were processed

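Stranded poly(A) RNA-seq was available from 20 libraries, and 69 ChIP samples named in the labels were not analysed here. The authors aligned reads to mm10 with STAR and quantified them with RSEM, and deposited 1 table of estimated counts, held as whole numbers, and 1 table of TPM. Of 54238 rows, 92 spike-in rows with 0 counts were left out. Whether RSEM used strand is not given in the sources used here, and antisense or other genes overlapping Acvr2b, Inhba and Fst had 0, 2 and 3 counts in all. Gene positions came from GENCODE M21 on GRCm38.

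Counts were fitted per medium across all genes with edgeR 4.0.16 (TMM, quasi-likelihood F-test) in R 4.3.3, keeping genes with at least 20 counts in all libraries of a state, and media were compared in 1 fit of all 20 libraries. Calls needed a Benjamini-Hochberg adjusted p under 0.01 and, for differences between groups, a fold change over 1.5. Members and lists were chosen with earlier results of these data known. The named pathway genes were the 3 called genes with the largest rise and fall in -E-N per medium at a mean of at least 100 counts, and, elsewhere, the called genes where 5 or fewer, and some genes are not reported here. Alternatives were DESeq2 1.42.0, its size factors, no count filter, limma 3.58.1 on log2(TPM + 1) or log2(TPM + 0.1), a replicate block, leaving out libraries, and other thresholds. The steps were tested on simulated data. No 2 libraries of a group agreed within sampling noise (chi-square per degree of freedom of 4.28 to 28.3). The study describes the libraries of a group as independent experiments.

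Replicate numbers were taken as pairing where every same-numbered pair of deviations from the group means correlated above 0.1 over at least 3 pairs. In 2i/LIF that held for -E with +E+N (0.187 to 0.483), -N with +E+N (0.170 to 0.572), -E-N with -N (0.155 to 0.450) and -E-N with -E (0.106 to 0.448), and not for -E-N with +E+N (-0.013 to 0.375). FCS/LIF has only 2 pairs a comparison.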

Additional observations from a re-analysis of the deposited data

Results flagged for a closer look

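The values below were picked out because the response of a member differed between media, or because the joint loss differed from the sum of the single losses, each by a direct test in edgeR. For -E, the log2 response in FCS/LIF minus that in 2i/LIF was 1.52 for Fst, -2.11 for Lefty1 and -1.67 for Lefty2. For -N it was -3.39 for Lefty1 and -1.68 for Lefty2. For -E-N it was 3.10 for Nodal, 1.87 for Tdgf1, 1.48 for Smad7 and -2.49 for Lefty1. Within 2i/LIF, the interaction on the log2 scale was 2.08 for Fst, -2.46 for Lefty1 and -2.33 for Lefty2. The differences between media compare 2 libraries a state in FCS/LIF with 3 in 2i/LIF, and medium and batch cannot be told apart.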

How the results depend on the processing

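The count of members called in -E-N in 2i/LIF stayed at 6 or 7 of 8 against +E+N under every alternative run, and the causes of the changes below were not tested. With all 20 libraries in one fit, 1 member was called in FCS/LIF for each of -E against +E+N, -E-N against -N and -E-N against -E, and 0 for -N. Without the fold limit 6 were called in FCS/LIF for -E and 4 for -E-N against -E, and limma at either pseudocount called 0 for -N. Members with an interaction in FCS/LIF numbered 1 in DESeq2 and 2 without the count filter. In 2i/LIF they numbered 6 in DESeq2, without the filter, with the replicate block, with all 20 libraries and at an adjusted p under 0.05, and 1 in limma at either pseudocount. Members whose -E response differed between media numbered 5 without the filter and 1 in limma on log2(TPM + 0.1), and those whose -N response differed numbered 1 in limma on log2(TPM + 1). Of the other pathway genes, -E in FCS/LIF called 5 without the filter, 5 with the replicate block, 6 at an adjusted p under 0.05 and 1 with all 20 libraries, and -N called 2 in DESeq2, 3 without the filter and 2 with the block, while -E-N called 16 without the fold limit. In 2i/LIF, -E called 4 of them in DESeq2, without the filter, with the block and at an adjusted p under 0.05, and -N called 4 with the block, 1 in limma at either pseudocount and 0 without the libraries numbered 1, an alternative chosen after seeing the data. The summed Lefty counts passed the threshold in DESeq2 for the interaction in FCS/LIF (0.50) and for -E-N against -E in 2i/LIF (0.68). Against +E+N and between -E-N and the single losses, the replicate block changed the call of 2 members, Smad7 for -E (-0.66) and Inhbb for -N (-1.26) in 2i/LIF, and across media it added calls of Nodal for -E (1.14), Tdgf1 for -N (0.41) and Inhbb for -E-N (3.71).

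Leaving out 1 library at a time, members called in FCS/LIF ranged from 0 to 1 for -N, from 2 to 4 for -E-N against -N and from 1 to 2 for -E-N against -E. In 2i/LIF they ranged from 1 to 2 for -E, from 4 to 6 for -E-N against -N and from 4 to 6 for -E-N against -E. The interaction in 2i/LIF ranged from 0 to 4 members. Across media they ranged from 0 to 4 for the -E response and from 1 to 2 for the -N response. Pathway genes in 2i/LIF ranged from 0 to 2 for -N and from 6 to 13 for -E-N.

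Some uncalled values near 0 changed sign. In limma, at both pseudocounts, Tdgf1 gave 0.032 for -E-N against +E+N and 0.080 against -N in FCS/LIF and 0.13 for the difference of the -E response between media, Smad7 gave 0.087 and 0.091 for -E-N against -N in FCS/LIF, and Acvr2b gave 0.025 and 0.026 for the interaction in FCS/LIF. Acvr2b for -E-N against -N in FCS/LIF was -0.0099 in DESeq2 and with its size factors and -0.0068 without the filter, and for the -N response between media -0.010 without the filter and -0.0045 and -0.014 in limma. Without the libraries numbered 1, Fst was 0.051 for -E and Acvr2b -0.0099 for -N in 2i/LIF. The Lefty sum was -0.062 for -E in FCS/LIF, where Lefty1 was positive, and 0.68 for -E-N against -E in 2i/LIF, where Lefty2 was negative. Without 1 library, values ranged from -0.074 to 0.021 for Tdgf1, -0.089 to 0.0049 for Smad7 and -0.081 to 0.027 for Acvr2b for -E-N against -N in FCS/LIF, from -0.049 to 0.058 for Acvr2b for -E-N against -E in FCS/LIF, from -0.25 to 0.075 for Fst and -0.10 to 0.062 for Acvr2b for -E in 2i/LIF, and, between media, from -0.25 to 0.14 for Tdgf1 for -E and -0.075 to 0.083 for Acvr2b for -N. Depth limits Inhba, with at most 22 counts a library, and Inhbb in -E-N in 2i/LIF, with 6 to 11.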
